A study of Drosophila melanogaster with 2 samples.

Results

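The CG9948-GFP peaks described here lie upstream of genes whose neighbour on the other strand starts close by and is transcribed away from them. CG9948 is an uncharacterized fly gene. Chromatin came from whole Drosophila melanogaster pupae aged 24 h of a stable transgenic line that expresses CG9948 with GFP fused to its C terminus, and an antibody against GFP was used for the precipitation. The 2 samples are biological replicates, numbered 1 and 3 by the submitters, and form 1 group, so no condition is compared. Pupae were taken whole, so a peak cannot be given to a tissue or cell type, and the labels do not say under which promoter the fusion is expressed or how many animals were pooled. The peaks were taken from the deposited optimal irreproducible discovery rate (IDR) list, which was derived from both replicates. A peak of this list need not be in both replicate lists. A peak counted as divergent when its summit lay within 500 bp of a transcription start site (TSS) of a protein-coding gene and upstream of the nearest such TSS. In addition, the gene had to have a partner on the opposite strand whose TSS lay within 1000 bp, with the minus-strand TSS to the left of the plus-strand TSS. Of 7637 IDR peaks, 800 met this rule. Another 889 lay within 500 bp upstream of a gene without such a partner, and 371 lay within 500 bp downstream of a TSS or at it.

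Divergent pairs share the stretch of DNA between their starts, called the gap below, which holds the core promoters of both genes back to back. In flies such pairs are common among housekeeping genes. Their promoters often carry the DNA replication-related element (DRE), a site of the factor DREF and the insulator protein BEAF-32, or Motif 1, the site of M1BP. Promoters of developmentally regulated genes more often carry GAGA elements, bound by GAGA factor, and an Initiator at the TSS. The nucleosome-depleted DNA of active promoters is often rich in A and T.

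The annotation holds 13945 protein-coding genes with 19253 distinct TSSs, and 5052 of these genes stand in 2667 divergent pairs with a median gap of 301 bp. The 800 divergent peaks belong to 715 pairs and 753 nearest genes, with 415 nearest a plus-strand TSS and 385 nearest a minus-strand TSS. Genes with several TSSs can form several gaps with the same partner. Counts over pairs used the shortest gap of each pair, while for a single peak any gap of its gene up to 1000 bp could hold the summit. On the latter terms the summit lay inside the gap in 630 of the 800 peaks (78.75%) and outside it in 170. Of those 170, 149 had their summit inside the nearest gene itself, upstream of another of its TSSs. For these 170 peaks the words "between divergent genes" describe the gene pair and not the position of the summit. The distance to the nearest TSS, which the rule limits, had a median of 135.5 bp with quartiles of 96 and 195.5 bp. Few peaks sat near the limits of the rule. The 7 divergent peaks at 450 to 500 bp from the TSS had a median signal of 203, and 7 otherwise similar peaks at 500 to 550 bp had one of 438. The 22 inside a gap of 900 to 1000 bp had a median signal of 313, and 21 peaks inside a gap of 1000 to 1100 bp had one of 247. With 1 TSS per gene, its outermost start, the rule found 531 peaks.

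The DNA of 5 short gaps that held a strong peak is shown here, because the results turn on what lies between the starts. These are the pairs with the strongest peaks found in both replicates, among gaps of 200 to 300 bp on chromosome arms 2L, 3L, 3R and X and chromosome 4. Each run is the plus strand from the base after the minus-strand TSS to the base before the plus-strand TSS, in dm6 coordinates, read from the RefSeq release 6 genome. Capitals mark CGATA (the core of the DRE, whose other strand reads TATCG) and TATAAA (whose other strand reads TTTATA).
Tcs5 and CHMP2B, chr3L:5139396-5139618: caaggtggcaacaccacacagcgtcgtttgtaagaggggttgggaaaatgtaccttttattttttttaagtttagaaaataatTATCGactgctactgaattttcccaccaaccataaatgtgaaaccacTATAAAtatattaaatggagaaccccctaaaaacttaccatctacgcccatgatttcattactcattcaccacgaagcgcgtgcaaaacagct
Art3 and mRpS10, chr3R:15229409-15229664: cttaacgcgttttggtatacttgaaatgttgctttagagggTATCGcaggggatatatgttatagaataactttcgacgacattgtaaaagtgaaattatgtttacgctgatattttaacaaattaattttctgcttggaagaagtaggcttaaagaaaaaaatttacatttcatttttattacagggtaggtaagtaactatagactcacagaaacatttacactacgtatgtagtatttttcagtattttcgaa
CG13390 and CG17294, chr2L:8376798-8377034: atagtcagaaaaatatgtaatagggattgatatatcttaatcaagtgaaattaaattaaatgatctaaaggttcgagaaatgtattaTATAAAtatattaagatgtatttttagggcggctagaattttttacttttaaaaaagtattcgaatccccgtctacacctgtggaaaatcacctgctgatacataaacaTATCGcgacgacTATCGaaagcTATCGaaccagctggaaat
CG3437 and CG3552, chr3L:9457670-9457911: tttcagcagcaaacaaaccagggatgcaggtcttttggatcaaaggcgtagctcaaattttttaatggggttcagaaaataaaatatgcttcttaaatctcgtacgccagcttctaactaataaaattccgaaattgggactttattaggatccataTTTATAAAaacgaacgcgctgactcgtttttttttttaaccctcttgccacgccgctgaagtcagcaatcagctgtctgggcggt
fws and Lamtor3, chr2L:17481030-17481230: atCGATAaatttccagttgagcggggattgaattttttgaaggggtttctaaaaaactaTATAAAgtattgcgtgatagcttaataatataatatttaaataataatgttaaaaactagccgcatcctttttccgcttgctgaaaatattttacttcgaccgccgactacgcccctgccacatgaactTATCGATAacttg
CGATA stood near both ends of the gap between fws and Lamtor3 and, in several copies, near the CG17294 start. In the gap of Tcs5 and CHMP2B it lay farther inside, and the gap of CG3437 and CG3552 held none. TATAAA was found in every one of the 5 gaps but that of Art3 and mRpS10. The summits lay 100, 121, 93, 122 and 106 bp from the left end in the same order. For comparison, 2 gaps of similar length are shown that had no summit in any of the deposited lists.
Uqcc1 and Surf1, chr3L:6958109-6958345: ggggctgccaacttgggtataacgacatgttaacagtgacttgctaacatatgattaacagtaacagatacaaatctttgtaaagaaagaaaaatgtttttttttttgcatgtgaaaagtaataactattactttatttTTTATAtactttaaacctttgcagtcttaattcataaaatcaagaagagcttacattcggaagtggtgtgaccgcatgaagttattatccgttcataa
Eig71Ef and Eig71Eg, chr3L:15657391-15657627: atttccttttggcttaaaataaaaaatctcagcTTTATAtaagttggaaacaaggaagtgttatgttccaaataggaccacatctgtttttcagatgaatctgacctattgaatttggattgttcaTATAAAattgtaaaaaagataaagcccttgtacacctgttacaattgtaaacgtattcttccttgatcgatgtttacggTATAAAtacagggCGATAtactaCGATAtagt
Both hold TATAAA, and the second also holds CGATA. Eig71Ef and Eig71Eg belong to a cluster of ecdysone-induced genes, and Surf1 and Uqcc1 are needed to assemble respiratory chain complexes. Both gaps without a peak were also rich in A and T, at 69.2 and 68.8% over the whole gap, against 61.9, 69.9, 69.2, 59.9 and 65.7% in the 5 gaps with a peak.

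Gaps of intermediate length held peaks most often. An IDR summit lay in 597 of the 2667 gaps (22.4%, 95% Wilson interval 20.8 to 24.0), and this share is the background for every count of pairs below. By length, where each class excludes its lower bound, the share was 0.932% of 429 gaps up to 100 bp, 6.25% of 208 gaps of 100 to 150 bp and 9.40% of 149 gaps of 150 to 200 bp. It reached 36.2% of 542 gaps of 200 to 300 bp and 39.0% of 400 gaps of 300 to 400 bp. Longer gaps held a summit less often, with 26.1% of 475 gaps of 400 to 600 bp, 19.9% of 271 gaps of 600 to 800 bp and 18.7% of 193 gaps of 800 to 1000 bp. Gaps of 200 to 400 bp thus held a summit in 352 of 942 cases (37.4%) and gaps up to 200 bp in 31 of 786 (3.94%), a difference of 33.4 percentage points (95% Newcombe interval 29.99 to 36.8). Among the stronger 50% of the IDR peaks the difference was 19.8 points. As many of the strongest peaks of each replicate's own list gave 32.2% against 2.93% in replicate 1 and 38.1% against 3.82% in replicate 3. A longer gap offers more bases for a summit, and a very short one fewer. Per kb of gap, summits numbered 0.164 in gaps up to 100 bp, 1.43 at 200 to 300 bp, 1.15 at 300 to 400 bp and 0.237 at 800 to 1000 bp. In a window of equal size for every gap, within 150 bp of its midpoint, 12.1% of gaps up to 100 bp had a summit, 36.7% at 200 to 300 bp, 38.8% at 300 to 400 bp and 4.15% at 800 to 1000 bp. These windows reach into the transcribed genes where the gap is short. In gaps of 800 to 1000 bp they leave out the DNA next to both starts, and summits there lay a median of 271 bp from the midpoint. The low share of the longest gaps in these windows thus partly follows from the window.

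**Figure D1:**
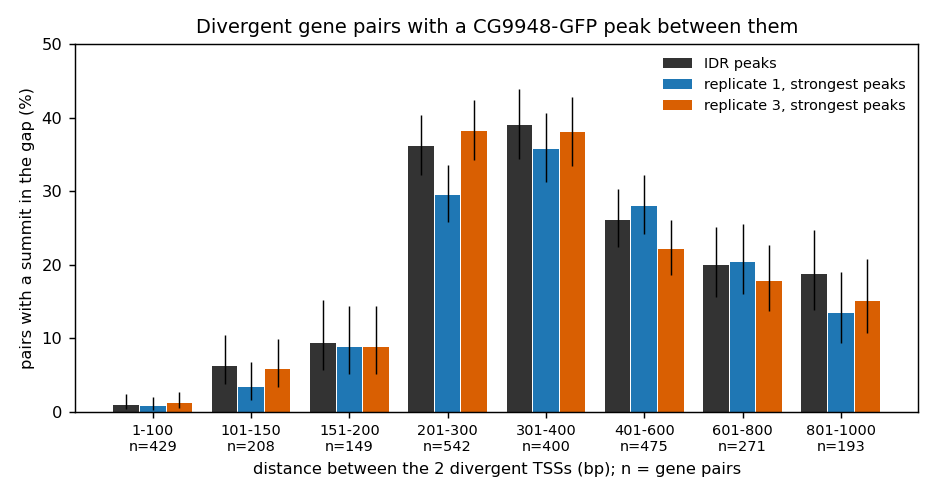
Share of divergent gene pairs with a summit in the gap (percent) by the distance between both TSSs (bp), for the IDR peaks and for equally many of the strongest peaks of replicates 1 and 3; bars start at 0 and lines are 95% Wilson intervals over gene pairs. In all 3 lists the shares stay under 10% up to 200 bp, lie between 29.5% and 39.0% at 200 to 400 bp and fall in longer gaps.

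The 800 divergent peaks were spread over chromosome arms 3R (218), 3L (179), 2L (148), 2R (145) and X (107), with 3 on chromosome 4. With overlapping gaps merged, the gaps of the pairs made up 0.659% of the 6 chromosome arms and held 571 summits, 7.48% of all IDR summits. That is 648 summits per Mb of gap, against 166 per Mb in the 500 bp upstream of genes without a divergent partner and 57.0 per Mb over whole chromosomes. The strongest peaks of each replicate gave 585 and 614 per Mb of gap for replicates 1 and 3. The upstream stretches made up 4.21% of the arms and held 932 summits, 12.2% of all. A gap is never longer than 1000 bp, and the rule for a peak does not enter these densities. The stretches compared are unlike, since a gap, with a median of 301 bp, serves 2 genes, while 500 bp were taken for each TSS without a partner. The densities are thus not rates per gene, and the part of this in their difference was not tested. Counted over pairs, the gaps held 614 summits, because gaps of different pairs can overlap and a summit then counts for each of them. Most occupied gaps held a single summit, 581 of 597. Another 15 held 2, and the gap between Ank2 (an ankyrin that anchors the membrane skeleton) and Mcad (a medium-chain acyl-CoA dehydrogenase) held 3. Of the 2070 gaps without an IDR summit, 476 (23.0%) held a summit of the pooled list of 30000 peaks, and 1339 held none in any list.

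Summits lay near the middle of gaps of 200 to 400 bp, and in longer gaps their median distance to the nearest start changed little. In gaps of 200 to 300 bp the median distance from summit to midpoint was 25.5 bp (n = 197), where a summit placed evenly along the gap would give 63.5 bp. At 300 to 400 bp it was 39.5 bp (n = 152), against 87.5 bp for even placement. In gaps of 800 to 1000 bp it was 271 bp (n = 41), against 226.5 bp. The few summits in gaps of 100 to 150 bp did not stand nearer the middle than even placement, at a median of 37.25 bp (n = 14) against 33.5 bp. The median distance to the nearest TSS was 99 bp at 200 to 300 bp, 133.5 bp at 300 to 400 bp, 166.5 bp at 400 to 600 bp, 170 bp at 600 to 800 bp and 184 bp at 800 to 1000 bp. Single summits varied widely around these medians, with quartiles of 130 and 266 bp at 800 to 1000 bp. Over gaps of 200 to 400 bp the summits of the replicates' own peaks lay a median of 32 bp (replicate 1) and 30.5 bp (replicate 3) from the midpoint, and the IDR summits 31.5 bp. The median IDR signal was 359 in gaps of 200 to 300 bp, 359 at 300 to 400 bp, 307 at 400 to 600 bp, 308 at 600 to 800 bp and 297 at 800 to 1000 bp.

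**Figure D2:**
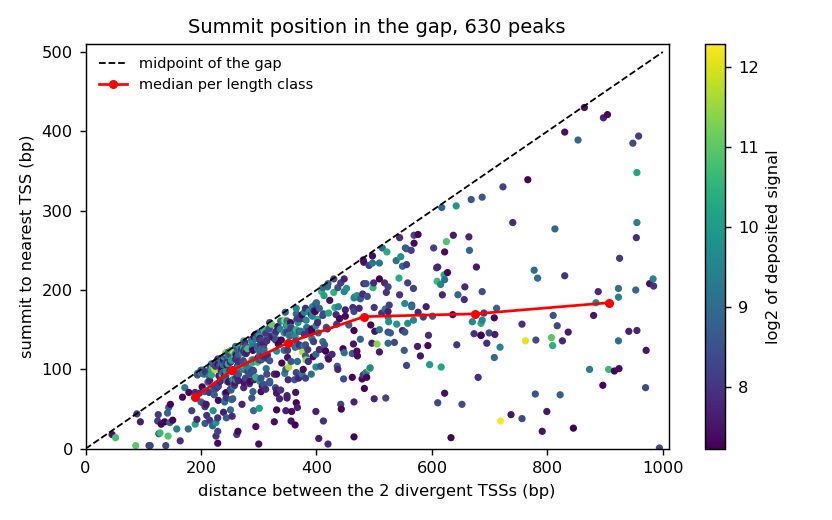
Distance from the summit to the nearest TSS (bp) against the distance between both TSSs (bp) for the 630 divergent peaks inside a gap, coloured by log2 of the deposited signal; the dashed line is the midpoint and red points are medians per length class. Many summits in gaps of 200 to 400 bp lie near the midpoint line, and the medians of the longer classes are 166.5 to 184 bp with wide scatter.

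Summits stood on A+T-rich DNA. The windows within 50 bp of divergent summits had an A+T content of 71.1% ± 8.13 (SD, n = 800 peaks), and windows of the same total length centred 200 bp away on both sides had 58.7% ± 8.06. The nearest TSS lay a median of 135.5 bp from the summit, so the flank on that side mostly lay past the start. The part of this position in the difference was not tested. The summit window was richer than its flanks in 712 of 800 peaks (89.0%). Peaks upstream of genes without a partner had 69.8% ± 8.77 (n = 889) at the summit and 56.0% in the flanks. All IDR peaks had 69.8% at the summit, and the genome holds 57.8%. Within gaps of 200 to 400 bp, the window within 50 bp of the midpoint had 74.7% ± 6.03 A+T where the gap held a peak (n = 352) and 70.5% ± 8.88 where it did not (n = 590).

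Short A+T-rich words were frequent at the summits, and the other motifs were more frequent in the flanks, for most of them also over all IDR peaks. Each motif was searched on both strands within 50 bp of the summit and in the same flanks, which often reach past the nearest TSS. TATAAA matched 250 of the 800 divergent summits (31.2%) and 10.6% of their flanks, against 29.2% of the summits upstream of genes without a partner and 27.2% of all IDR summits. In windows of 25 and 100 bp each side it matched 16.9% and 49.1% of divergent summits. The difference between both upstream classes was 2.004 percentage points with a Newcombe interval of -2.37 to 6.39. AATAAA matched 43.6% of divergent summits, 200 of their 800 flanks (25%), 39.4% of upstream summits without a partner and 35.9% of all IDR summits. TTTAAA matched 30.75% of divergent summits and 12.1% of flanks, against 25.4% of upstream summits without a partner, a difference of 5.33 points (1.04 to 9.61), with 24.2% over all IDR summits. AAAAAA matched 32.5% of divergent summits, against 30.7% without a partner and 31.9% of all IDR summits. In contrast, CGATA matched 14.75% of divergent summits and 18.0% of their flanks, against 11.8% without a partner and 10.4% of all IDR summits. The pentamer CACTG matched 12.4% of divergent summits and 19.75% of flanks, against 12.7% without a partner and 13.6% of all IDR summits. CANNTG, the E-box, matched 26.0% of summits and 37.4% of flanks, and its palindromic form CAGCTG 2.12% of summits and 8.25% of flanks. Over all IDR summits these were 30.4% and 1.68%. The flanks of all IDR peaks had CACTG in 18.8%, CANNTG in 41.0%, CAGCTG in 5.47% and TATAAA in 8.84%. For these words the direction from summit to flank was thus not particular to divergent peaks. The full DRE, TATCGATA, which contains CGATA, matched 1.12% of divergent summits and 2.38% of flanks, with 0.314% over all IDR summits. Motif 1, searched as GGTCACAC, matched 0.625% of summits and 3.38% of flanks, with 0.301% over all IDR summits. GAGAG, found in GAGA elements, matched 7.12% of divergent summits and 14.0% of flanks, against 7.82% of all IDR summits. The 630 peaks with the summit inside the gap had GAGAG in 5.71% of summits and 9.68% of flanks. GAGAG matched 26.2% of flanks of upstream peaks without a partner and 18.0% of those of all IDR peaks. TATCGATA and GGTCACAC matched 3.02% and 4.29% of the flanks of peaks inside the gap, and 0.484% and 0.563% over all IDR peaks. TCAGT, the Initiator core, matched 13.4% of divergent summits, against 17.1% of upstream summits without a partner and 16.6% of all IDR summits. The E-box CACGTG matched 0.75% of divergent summits and 0.367% of all IDR summits.

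**Figure D3:**
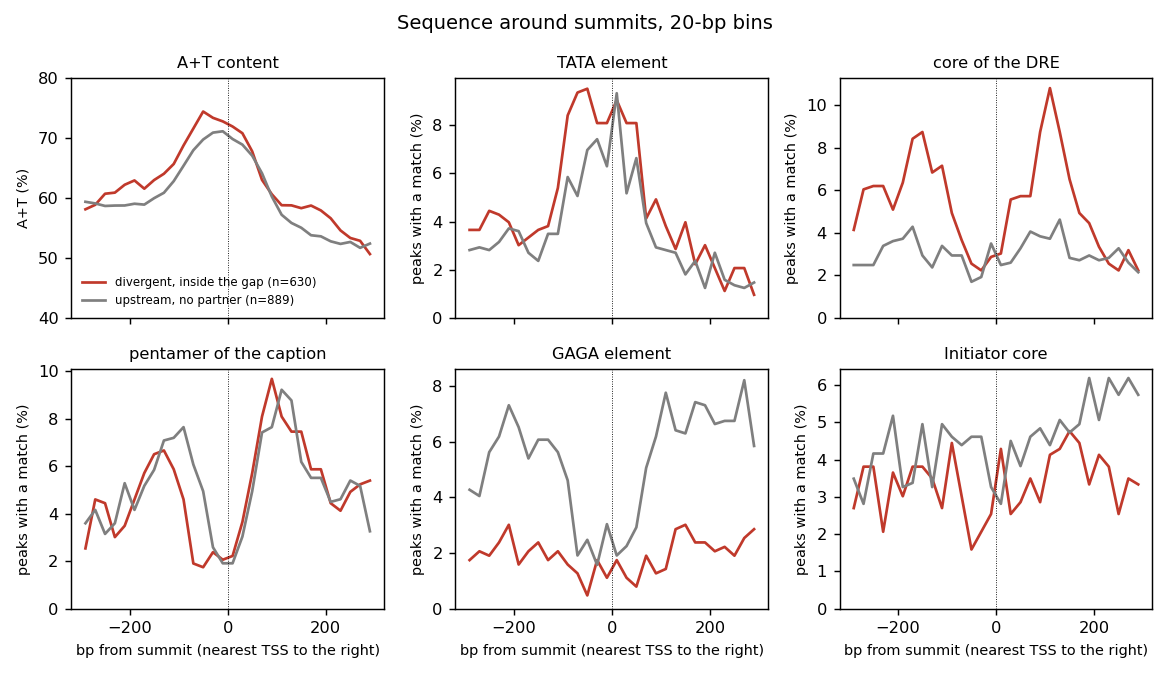
A+T content (percent, axis from 40 to 80) and share of peaks with a motif match (percent) in bins of 20 bp within 300 bp of the summit, with the nearest TSS to the right, for 630 divergent peaks inside a gap (red) and 889 upstream peaks without a partner (grey). The panels are the TATA element TATAAA, the DRE core CGATA, the pentamer CACTG, the GAGA element GAGAG and the Initiator core TCAGT; A+T content and TATAAA are high around the summit, with the highest divergent bins on the side away from the nearest TSS (74.5% A+T and 9.52% TATAAA in the bin centred at -50 bp), CGATA forms a pair of maxima beside it in the divergent peaks, and GAGAG is lower in the divergent peaks at nearly all distances.

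The start sites next to the divergent peaks differed in their promoter motifs from those next to the other upstream peaks. The nearest TSSs of the peaks inside a gap were 628, and those of the upstream peaks without a partner 862. In the 100 bp before the TSS, CGATA matched 33.1% of the divergent TSSs and 17.6% of the others, a difference of 15.5 points (11.02 to 19.96), and 25.8% of all protein-coding TSSs. TATCGATA matched 9.39% and 1.97% in the same order, with 5.13% over all TSSs. GGTCACAC matched 3.50% and 1.28%, with 2.59% over all TSSs. GAGAG was rarer, with 9.08% of divergent TSSs and 30.9% of the others, a difference of -21.8 points (-25.5 to -17.9), against 15.3% of all TSSs. TCAGT within 25 bp of the start matched 11.9% and 32.4%, a difference of -20.4 points (-24.4 to -16.3), with 23.1% over all TSSs. The A+T content 100 to 150 bp upstream averaged 72.9% ± 9.78 at divergent TSSs and 60.3% ± 13.8 at the others. All these intervals cover counting over TSSs only, and neighbouring starts share DNA. Divergent and other genes were not matched for any property but the peak, so these differences describe the promoter classes.

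A closer contrast is between gaps of 200 to 400 bp with a peak (646 TSSs) and without one (1121 TSSs), since both kinds are divergent and of similar length. Here a gap without a peak is one without an IDR summit. Of all 942 gaps of this length, 539 held a summit of the pooled list, so some gaps without an IDR summit held a pooled one. Next to the TSS, CGATA was found at a similar rate in both. In the 50 bp before the TSS it matched 28.9% with a peak and 27.7% without, a difference of 1.29 points (-3.02 to 5.71), and it matched 16.6% of all protein-coding TSSs. It stood on both sides of the midpoint in 81 of 352 gaps with a peak (23.0%) and 141 of 590 without (23.9%). Within 50 bp of the midpoint CGATA was rarer with a peak, at 9.38% and 15.1%, a difference of -5.71 points (-9.78 to -1.31). CAGCTG was also rarer there, at 0.852% and 3.05%, a difference of -2.20 points (-4.01 to -0.231). CACTG matched the 50 bp before the TSS in 20.7% with a peak and 11.7% without, a difference of 9.06 points (5.49 to 12.8), against 11.3% of all TSSs. The strongest peaks of replicate 1 alone gave a difference of 9.61 points and those of replicate 3 alone 9.19. With only the stronger 50% of the IDR peaks counted as peaks, the difference was 3.83 points (-0.254 to 8.43). Between 100 and 150 bp upstream CACTG was rarer with a peak, at 3.41% and 6.42%, a difference of -3.02 points (-4.98 to -0.885), against 7.84% of all TSSs, and replicates 1 and 3 gave -2.78 and -3.17 points. CAGCTG next to the TSS matched 8.67% with a peak and 5.17% without, a difference of 3.49 points (1.07 to 6.18), with 4.42% over all TSSs, and it gave 5.02 points in replicate 1, 3.73 in replicate 3 and 5.99 with the stronger 50% of the IDR peaks. TATAAA between 100 and 150 bp upstream matched 19.97% and 15.8%, a difference of 4.18 points (0.508 to 8.01), with 9.52% over all TSSs. In the 50 bp before the TSS it was rarer with a peak, at 4.64% and 8.56%, a difference of -3.92 points (-6.17 to -1.49), with 11.3% over all TSSs, and replicates 1 and 3 gave -3.32 and -3.88 points. At the midpoint itself TATAAA matched 34.9% of gaps with a peak and 27.5% of those without, a difference of 7.49 points (1.41 to 13.7). The A+T content moved with these words, at 74.7% and 70.5% at the midpoint, and its part in the TATAAA difference was not tested. A motif match is a string in the sequence and not a bound site.

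**Figure D4:**
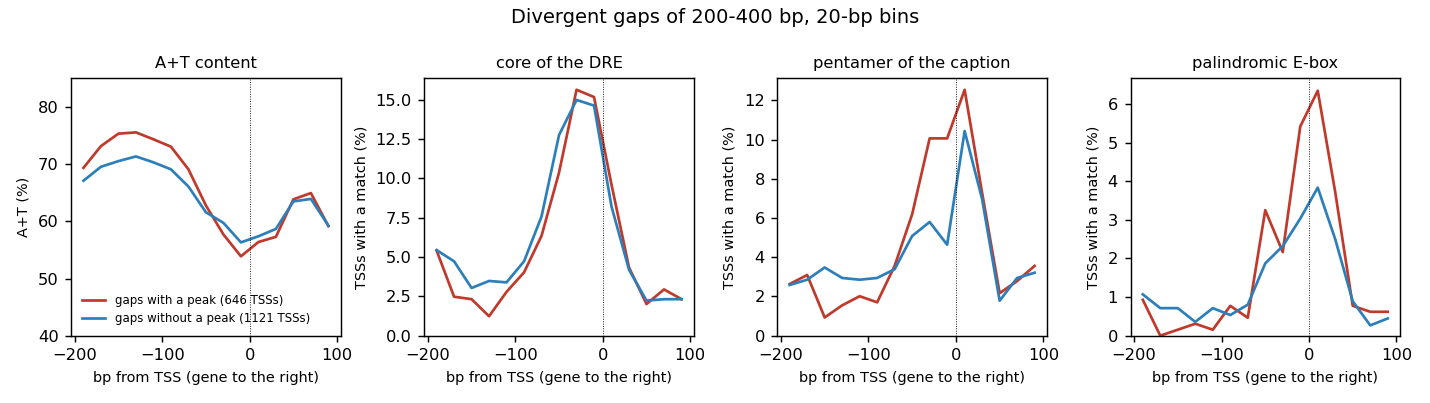
A+T content (percent, axis from 40 to 85) and share of TSSs with a motif match (percent) in bins of 20 bp from 200 bp before to 100 bp after the TSS, in gaps of 200 to 400 bp with an IDR peak (red, 646 TSSs) and without one (blue, 1121 TSSs). The panels are the DRE core CGATA, the pentamer CACTG and the palindromic E-box CAGCTG. For CGATA both lines nearly coincide next to the TSS, and the line with a peak is lower in the bins centred at -170 to -50 bp. CACTG and CAGCTG are higher next to the TSS in gaps with a peak.

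The signals of divergent peaks covered the range of the IDR list. The signal is the value deposited with each peak, whose scale is not stated. The 800 divergent peaks had a median of 330 with quartiles of 218 and 594, the upstream peaks without a partner 369 (226 and 726), the peaks downstream of a TSS 277 and all IDR peaks 311. Among the 1000 strongest IDR peaks were 134 divergent peaks (16.75%) and 187 upstream peaks without a partner (21.0%), against 13.1% of all IDR peaks. Of the 630 divergent peaks with the summit inside the gap, 95 (15.1%) were among them, closer to the share of all IDR peaks. Those 630 peaks had a median signal of 326. The median of divergent peaks over that of upstream peaks without a partner was 0.894 in the IDR list and 0.932 in the strongest peaks of the replicate 3 list, but 1.03 in those of the replicate 1 list. The direction of this difference thus was not the same in both replicates.

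Divergent peaks were found less often in replicate 1 than upstream peaks without a partner. A peak counted as found when a peak of that replicate's list of 30000 covered at least 50% of the shorter peak. In both replicates 653 of 800 divergent peaks were found (81.6%, 78.8 to 84.2), against 781 of 889 (87.9%) and a background of 91.1% of all IDR peaks. In replicate 1 it was 672 of 800 (84.0%), against 811 of 889 (91.2%), a difference of -7.23 points (-10.4 to -4.09), with 94.1% of all IDR peaks. In replicate 3 it was 779 of 800 (97.4%), against 859 of 889 (96.6%), with 97.0% of all IDR peaks. There were 19 divergent peaks found in replicate 1 only, 126 in replicate 3 only and 2 in neither. In the stronger 50% of the IDR peaks the replicate 1 shares were 93.6% and 96.4%, a difference of -2.74 points (-5.78 to 0.0388), and in the weaker 50% 73.2% and 83.9%. With summits within 250 bp of the TSS the difference was -4.51 points (-8.44 to -0.424). The divergent peaks missing from a replicate list were weak, with a median IDR signal of 224. Peaks downstream of a TSS had a replicate 1 share of 80.9%, below the divergent one. Where both replicates had a peak, the median ratio of the replicate 3 to the replicate 1 signal was 1.97 for divergent peaks and 2.15 for upstream peaks without a partner, and the divergent summits of both replicates were a median of 22 bp apart. Whether both lists share a signal scale is not stated, so the ratio does not rank the replicates. Depth is unknown, so whether a missing peak is absent in replicate 1 cannot be told apart from a shallower library. Each replicate list held the same number of peaks, 30000, and whether the lists were cut at that number is not stated. A weak peak could thus be missing because a list ended before it, which was not tested.

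**Figure D5:**
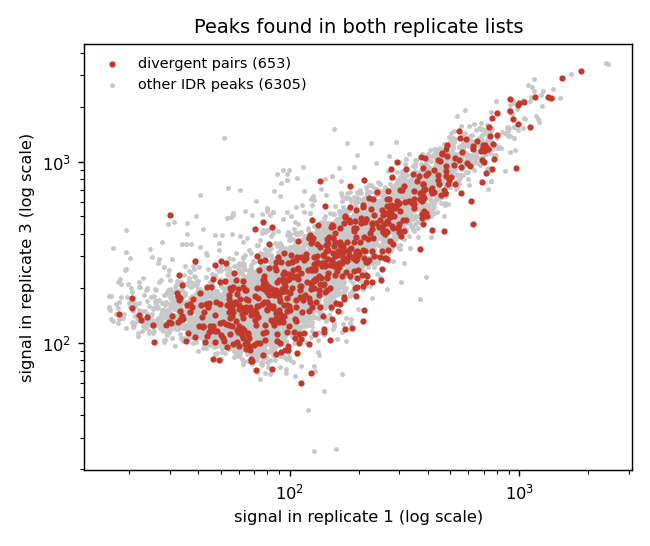
Deposited signal in replicate 3 against that in replicate 1 (both on log axes) for 653 divergent peaks (red) and 6305 other IDR peaks (grey) found in both replicate lists. Divergent peaks lie in the same cloud as the other peaks and reach the upper end of both scales.

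Of the 15 strongest divergent peaks found in both replicates, 12 had their summit between both starts. Signals of single peaks are given for the IDR list and then for replicates 1 and 3, with 1 value per replicate. The strongest lay on chromosome X between Ugalt, a UDP-galactose transporter, and eIF2Bbeta, a subunit of the exchange factor for initiation factor eIF2, whose starts are 719 bp apart. It had a signal of 4986, with 1859 in replicate 1 and 3149 in replicate 3, and its summit stood 35 bp upstream of Ugalt. The peak between mRpL41, a mitochondrial ribosomal protein gene, and CG8079 had 4407, with 1527 and 2896 in the replicates. Between Tcs5, a kinase of tRNA modification, and CHMP2B, an ESCRT-III subunit, the signal was 3618, with 1381 and 2245. Between Art3, an arginine methyltransferase, and mRpS10, another mitochondrial ribosomal protein gene, it was 3600, with 1331 and 2276. The summits of these last 2 peaks stood 100 bp from the start of Tcs5 and 121 bp from that of Art3, in gaps of 224 and 257 bp whose sequences are given above.

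Further strong peaks were found in both replicates, with the higher signal in replicate 3 each time. The gap between eIF4EHP, which encodes a cap-binding translational repressor, and CG18428 had a signal of 3418, with 1168 and 2263. That between CG5611 and Mtl, a Rac-like GTPase, had 3178, with 1044 and 2124. That between mRpS23 and CenG1A, an ARF GTPase-activating protein, had 3128, with 908 and 2220. Pdrg1 and Pal1, an enzyme of peptide amidation, shared a peak of 3035, with 988 and 2047. CG13390 and CG17294 shared one of 2661, with 803 and 1858. The pair CG5757 and CG5098 had 2654, with 1115 and 1545. CG3437 and CG3552 had 2653, with 939 and 1716. The gap between p38a, a stress-activated MAP kinase, and CG6178 had 2599, with 988 and 1611. In the IDR list these 15 peaks ranked from 3 to 47 by signal.

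Among the 15 strongest, 3 had their summit outside the gap that put them on the list. The peak nearest Fkbp14, a peptidyl-prolyl isomerase of the endoplasmic reticulum, has CG46395 as its partner, and its signal was 3100, with 999 and 2107. The one nearest C1GalTA, a galactosyltransferase of mucin-type glycans with CG46397 as its partner, had 2813, with 913 and 1904, and lay 4102 bp from the partner's start. The one nearest gish, a casein kinase 1 of the gamma type paired with Mat89Ba, had 2511, with 764 and 1750, and lay 8334 bp from the partner's start. All 3 stand at another start of the nearest gene.

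Single gaps of near-equal length could differ widely in signal. The shortest occupied gap of a divergent peak, 46 bp between PDCD-5 and MED10 (a Mediator subunit), had a signal of 179, with no peak in replicate 1 and 128 in replicate 3. The next in length, 52 bp between CG32022 and CG6511, named after its value was seen, had 1795. The longest, 994 bp between a start of Gnpat, an acyltransferase of ether lipid synthesis, and one of CG5112, had 331, with 94.5 and 247. Its summit stood 1 bp upstream of that Gnpat start. The same genes also have starts 524 bp apart, with another summit of 203 between them, so 994 bp is not the shortest gap of this pair. The 3 summits between Ank2 and Mcad had signals of 674, 1155 and 218 and came from a single peak interval, which in the replicates had 473 and 670.

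The 4 strongest divergent peaks found in a single replicate list were less strong than the 15 strongest found in both lists. The peak between CG7841 and Z600, an inhibitor of mitosis in the early embryo, had 1434, with 1139 in replicate 3 only. The peak between CG7810 and CG7806 had 652, with 505 in replicate 3 only. The peak between TH1, a subunit of the pausing factor NELF, and mei-41, the fly ATR kinase, had 690, with 332 in replicate 1 only. That between Ugt302K1 and Ugt302E1, UDP-glycosyltransferase genes, had 536, with 176 in replicate 1 only. So these 4 were split evenly between the replicates, while most divergent peaks found in a single list were those of replicate 3.

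Genes of housekeeping complexes often stood in divergent pairs, and a part of these pairs had a peak. The lists below were made from gene symbols, and 362 of their 575 genes (63.0%) stood in a divergent pair, against 36.2% of all protein-coding genes. Of those 362, 98 (27.1%, 22.8 to 31.9) had an IDR summit in the gap, against 22.6% of all genes in pairs. Among cytosolic ribosomal protein genes, 22 of 56 in a pair had one (39.3%, 27.6 to 52.4). From the strongest peaks of replicate 1 alone the share was 28.6% (18.4 to 41.5), whose interval includes the share of all genes in pairs, and from those of replicate 3 alone 37.5%. With the stronger 50% of the IDR peaks, it was 8.93% for these genes and 12.7% for all lists together. Of all gaps 12.2% then held a summit, a share counted over pairs and not over genes. Examples are RpL34b with CG8132 as its partner, at a signal of 660, with 265 and 410 in replicates 1 and 3, and RpS28b with l(1)G0320, at 645, with 184 and 464. Aminoacyl-tRNA synthetase genes, which charge tRNAs, had 9 of 23 (39.1%, 22.2 to 59.2), and 13.0% in the stronger 50%. IleRS, paired with Hem of the SCAR complex, had 1024, with 379 and 647. GluProRS, paired with AP-1sigma of a clathrin adaptor, had 685, with 254 and 412. Mitochondrial ribosomal protein genes had 17 of 58 (29.3%, 19.2 to 42.0), or 19.0% in the stronger 50%, and included mRpL41, mRpS10 and mRpS23 named above. Translation factor genes had 5 of 25 (8.86 to 39.1%).

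The intervals of all single lists but that of cytosolic ribosomal proteins include the background of 22.6%. Mediator and general transcription factor genes had 11 of 36 (30.6%, 18.0 to 46.9). Among them, Taf2, a TFIID subunit paired with CalpB (a calpain), had a signal of 1221, with 322 and 907. Taf5 with Pex6, a peroxisomal ATPase, had 1030, with 347 and 686. Rab and Vps genes of vesicle traffic had 10 of 35 (28.6%). The pair of Vps33B and Fur1, a furin-type protease, had 1266, with 522 and 751. Rab3GAP1, paired with CG14352, had 517, with 210 and 293. Insulator and architectural protein genes had 3 of 13 (23.1%), among them Cp190 with CG4338 at 1804, with 681 and 1143, and M1BP with CG8202 at 765, with 226 and 547. The A+T content of the M1BP summit window was 94.1%. Spliceosome genes had 6 of 27 (22.2%), with Prp31 and Msh6, a mismatch repair gene, at 534, with 232 and 303. Sf3b6 with Tnpo, a transportin, had 503, with 222 and 287. Oxidative phosphorylation genes had 9 of 43 (20.9%). ND-ASHI of complex I, paired with Fum1 (fumarase), had 1312, with 427 and 895. ND-MWFE, also of complex I, paired with TppII, a large peptidase, had 890, with 468 in replicate 1 and 415 in replicate 3, the only pair named here with the higher value in replicate 1 among those found in both lists. DNA replication genes had 3 of 18 (16.7%), with PolD2 and CG13933 at 695, with 205 and 485, and Mcm2 and RPA1 at 571, with 253 and 322. Proteasome genes had 3 of 26 (11.5%, 4.003 to 29.0). Rpn3, paired with l(2)37Bb, had 516, with 127 and 379. Rpn13, paired with CtsL1, a cathepsin, had 210, with a peak of 141 in replicate 3 only. Small heat shock genes had 0 of 2.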

How the data were processed

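Anti-GFP ChIP-seq was done on chromatin of whole pupae, sheared by sonication, in 2 biological replicates per the labels. All 4 lists are narrowPeak files with dm6 coordinates, per readme texts that came with them. By these texts, each replicate list (30000 peaks) came from that replicate's aligned reads and a control, a pooled list (30000) from both replicates, and the optimal IDR list (7637) from the other 3. Which aligner and peak caller were used, and with what thresholds, is not given in the sources used here. Reads of the control were not used here. Peak signal was deposited by the authors without a stated scale, and it served to describe and rank peaks. No use was made of the −log10 q-value deposited with each peak. The deposited summit offset was counted from the peak start, and where it equalled the peak width the last base was taken.

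TSSs came from Ensembl release 115 protein-coding transcripts, sequence from RefSeq release 6, and coordinates are 1-based. The lists hold no read counts, so depth is unknown. Shares have 95% Wilson intervals and differences of shares 95% Newcombe intervals, which cover counting error over peaks, gaps or genes only. No p-value is given, because there is 1 group and regions are not replicates. In all, 13 motifs were searched on both strands within 50 bp of the summit and in flanks centred 200 bp away. CGATA lies within TATCGATA, and CAGCTG and CACGTG are forms of CANNTG. For a list based on a single replicate, the 7637 strongest peaks of that replicate were taken. The classing, overlap and motif steps were tested on simulated data.

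The peaks, motifs and 12 gene lists were chosen with earlier results of these data known. Named are both genes at the 15 strongest divergent peaks found in both replicate lists, the longest and shortest gap, up to 2 pairs per gene list, the gap with most summits and the 4 strongest divergent peaks found in 1 replicate list only. Whole gaps are printed in place of the summit windows first planned, and the 2 gaps without a peak were chosen by length alone, closest to the printed gaps with a peak. Alternatives were other distance and gap limits, overlaps, windows and TSS sets, the stronger 50% of the IDR peaks, and each replicate alone. Python 3.11.15, NumPy 2.4.6, pandas 2.3.3, SciPy 1.17.1 and matplotlib 3.10.9 were used.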

Additional observations from a re-analysis of the deposited data

How the results depend on the processing

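Of 139 alternative values over 12 planned settings and 2 added after seeing the data, none changed the sign of a value given as a difference; the median signal ratio to upstream peaks without a partner, 0.894, came to 0.963 with gaps up to 500 bp. With the stronger 50% of the IDR peaks, the rule found 423 peaks, 12.2% of gaps held a summit, 92.0% of the peaks were found in both replicates, the median distance to the midpoint at 200 to 400 bp was 28 bp, the A+T content 72.8% and the share of listed genes with a peak 12.7%. An overlap of 80% gave 78.5% found in both replicates. Windows of 25 bp each side gave TATAAA in 16.9%, and windows of 100 bp each side gave TATAAA in 49.1% and an A+T content of 68.7%. With 1 TSS per gene 531 peaks were found, and peaks inside the gap alone had 72.0% A+T. Leaving out each replicate gave 699 to 785 peaks, 20.2 to 21.4% of gaps with a summit, signal ratios of 0.932 to 1.03, 79.7 to 90.7% of peaks found in the other replicate's list, 30.5 to 31 bp to the midpoint, 71.0 to 71.7% A+T, TATAAA in 30.4 to 31.9% and 22.4 to 26.8% of listed genes. The ratio of 1.03 is that without replicate 3. For the other 70 values (differences of shares and single gene lists), 60 stayed within the 95% counting interval of the value reported and 10 lay outside it, none with a change of sign. Some of the 60 could not move, because the setting did not enter them. The limit on summit distance does not enter the gap shares, the gene lists or the motif contrast of gaps of 200 to 400 bp. The other gap limits leave out no gap up to 400 bp. The cause of the shifts in this section was not tested. By definition the stronger 50% hold fewer peaks and wider windows more bases. No paired analysis was possible because the 2 samples form a single group. Depth is unknown, which limits what a missing peak in a replicate list can show.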
